A study of Homo sapiens with 16 samples.

Results

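The 51 genes described here build and run the DNA replication machinery: the origin recognition complex, the factors that load the MCM helicase on DNA, the helicase and its partners, the polymerases, the sliding clamp with its loader, the RPA complex that coats single strands, the enzymes that finish the strands, and the factors that protect the fork and rebuild chromatin behind it. Membership is by name, from a list of 51 gene symbols, with no threshold on any measured value. Each gene stands by the 1 of its probes that was brightest over the arrays. All 51 had a probe, out of 16922 genes on the array with 1 probe each, and 44 of them lay above background on all 4 arrays of at least 1 group of cultures.

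The cells were C4-2B/Rx2dox cells. C4-2B is a castration-resistant human prostate cancer line derived from LNCaP, and the subline was made by lentiviral transduction with a pSLIK vector from which doxycycline (Dox) drives a Flag-tagged mouse cDNA of the transcription factor Runx2, while the Ubi-c promoter drives the rtTA3 activator and hygromycin resistance. The 4 groups, with 4 cultures and 4 arrays each, were vehicle (distilled water) for 24 h (vehicle day 1), Dox at 250 ng/ml for 24 h (Dox day 1), vehicle for 48 h (vehicle day 2) and the same dose of Dox for 48 h (Dox day 2). All 16 cultures carry the construct, so the vehicle cultures differ from the Dox cultures in the addition of Dox and in what it induces, and Dox on parental cells without the construct was not analysed here. A level is a background-corrected and quantile-normalized log2 signal of an Illumina BeadChip probe, a change is a difference of such levels, and a change was called where limma's moderated p, adjusted by Benjamini-Hochberg over all 24526 probes, was under 0.05. Above background means a detection p, the share of an array's negative controls that outshone the probe, under 0.01. Changes are given with their standard error (SE).

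The median signal of an array ran from 119 to 124 in vehicle day 1, from 125 to 139 in Dox day 1 and from 107 to 113 over the 8 arrays of day 2, and 40.1% to 42.2% of the probes of an array lay above background. The number of arrays, 4 a group, limits the precision. The probe for human RUNX2 lay above background on 1 of the 16 arrays and what it reads of the mouse cDNA was not tested, so it does not check the labels. Of the markers of C4-2B identity, 9 of 9 measured genes lay above background on every array (KLK3, KLK2, TMPRSS2, FOLH1, HOXB13, STEAP2, KRT8, KRT18 and EPCAM), and none of 3 blood markers did on any array. Of 6 fibroblast markers COL1A1 and PDGFRB lay above background on 6 and 13 arrays and the other 4 on none, and of 3 endothelial markers VWF did on 15 arrays and the other 2 on none.

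In G1 the origin recognition complex (ORC1 to ORC6), CDC6 and CDT1 load the MCM2 to MCM7 ring on origins as an inactive double ring, a step called licensing, which geminin blocks once S phase has begun. The CDC7 kinase with its activator DBF4 and the cyclin-dependent kinases then turn each ring into an active helicase by adding CDC45 and the GINS complex, after which primase, the polymerases and the PCNA clamp copy both strands. Many of these genes are transcribed in late G1 and S phase under the E2F factors, and their RNA falls when cells leave the cycle.

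After 1 day of Dox, 36 of the 51 members were called lower and 0 higher. Over all 24526 probes 9.94% were called lower and 8.92% higher, and over the 8175 genes that every array of at least 1 group detected above background these shares were 21.9% and 20.4%. After 2 days, 44 members were called lower and 0 higher, where 14.5% and 14.4% of all probes and 31.1% and 30% of the genes above background were called. The falls were small on day 1 and large on day 2. Measured folds of the members called lower ran from 1.15 to 1.89 on day 1 (35 members, median 1.46) and from 1.18 to 5.23 on day 2 (40 members, median 2.69). No member fell by 2-fold or more on day 1, and 31 did on day 2, of which 5 fell by 4-fold or more: TOP2A, CDC45, MCM10, RFC3 and MCM2. These counts are those of the main fit and depend on the processing. With other processing or 1 array left out, the smallest log2 changes on day 2 were -1.99, -2.09, -1.61, -1.77 and -1.50 for these genes in turn. In bulk RNA, a smaller share of cells in S phase and less of these RNAs per cell cannot be told apart.

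**Figure D1:**
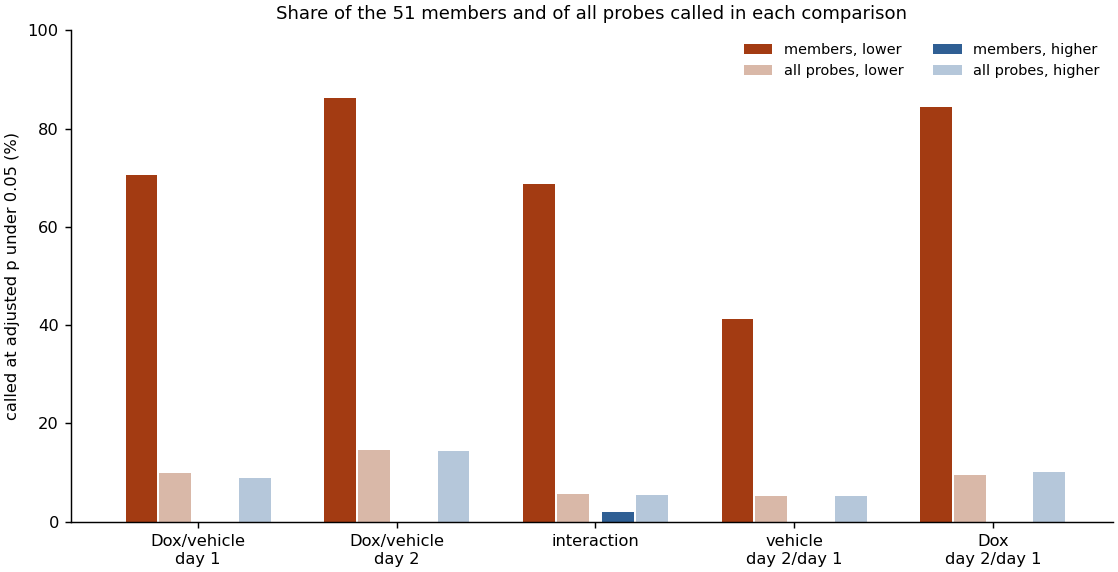
Share of the 51 members (dark bars) and of all 24526 probes (pale bars) called lower (brown) or higher (blue) in each of the 5 comparisons, at an adjusted p under 0.05; the y axis is in percent. The members called lower reach 70.6% on day 1 and 86.3% on day 2, and the only member called higher anywhere is 1 in the interaction.

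The median level over the 51 members, computed on each array, ran from 9.12 to 9.42 in vehicle day 1, from 8.45 to 8.64 in Dox day 1, from 8.76 to 8.88 in vehicle day 2 and from 7.45 to 7.50 in Dox day 2. The Dox arrays lay below the vehicle arrays of the same day on both days, and vehicle day 2 lay below vehicle day 1. The median change of the members was -0.44 on day 1 and -1.29 on day 2, where that of all probes was -0.01 and -0.01. Member by member, all 4 Dox arrays lay below all 4 vehicle arrays for 36 members on day 1 and 44 on day 2, against 11% and 14.1% of all probes. On day 2 these were the 44 members called lower, and on day 1 they held 34 of those called lower. The mean of Dox day 2 was the lowest of the 4 group means for 47 members, the exceptions being ORC4, ORC6, GINS1 and POLD3.

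The probes of ORC4, GINS1, DBF4, PRIM2, POLD3 and CLSPN lay above background on no array, so no fold is given for them, and none of the 6 was called on either day, although DBF4 passed on day 1 without vehicle day 1 replicate 4 (adjusted p = 0.043). CDC6 lay above background on 4 arrays, DNA2 on 8, ORC1 on 10, CHAF1A on 12, POLE on 13 and WDHD1 on 14. The other 39 members were above background on all 16. Where no array of the lower group was above background, a fold is a bound, taken from the brighter group's mean and the dimmest signal still counted as above background, and it is written as at least that many fold.

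**Figure D2:**
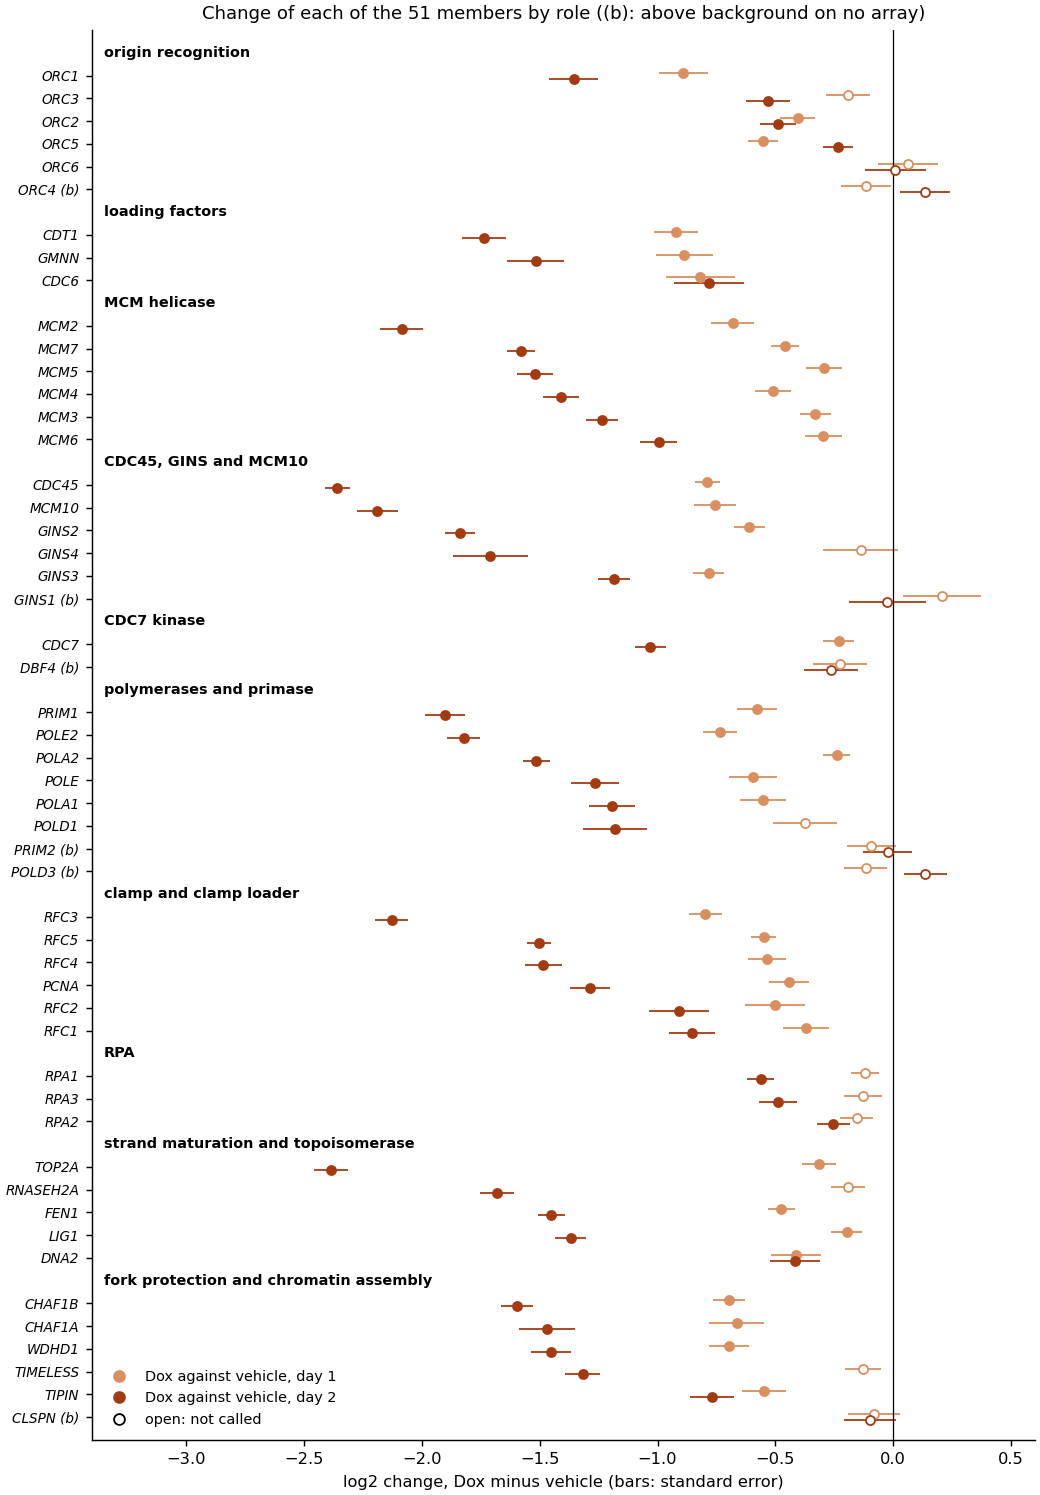
Log2 change of each member with Dox against vehicle on day 1 (pale) and day 2 (dark), by role, with the standard error as the bar; filled points are called at an adjusted p under 0.05. On day 2 the called members lie between -0.23 (ORC5) and -2.39 (TOP2A), and ORC6 lies at 0.01.

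The promoter windows of the members were read for short motifs, as a description. RefSeq windows of 300 bases (250 before to 50 after a gene start, GRCh38.p14) were matched by symbol for 44 of the 51 members. MCM4, MCM5, GINS4, POLD3, RPA2, RPA3 and DNA2 had no entry. The windows of ORC1, CDC45 and PRIM2 lie inside the listed span of the gene, away from its outermost start. An E2F-type match was an exact TTTCCCGC, TTTCGCGC, TTTGCCGC or TTTGGCGC on either strand, and a window counts once however many it holds. Such a match stood in 18 of the 44 windows (40.9%), in 4.18% of the 19322 windows of genes that the array names and in 3.31% of all 35116 windows. It stood in 16 of 38 members called lower on day 2 and in 2 of 6 that were not, GINS1 and CLSPN. Among those 6 only ORC6 lay above background on any array, so these shares do not contrast falling with steady genes. By the fitted change on day 2, a match stood in 13 of 29 members lower by 2-fold or more (44.8%). It stood in 3 of 9 lower by less than that (33.3%). The list was chosen by role in replication, and many such genes are transcribed under E2F factors, so the share of the members may reflect that choice. The CCAAT box (CCAAT) stood in 56.8% of the members' windows, 35% of those of genes that the array names and 34.6% of all. In the same order, the CHR element of cell cycle genes (TTTGAA) stood in 4.55%, 12.4% and 15.2%. The Runx motif (ACCACA) stood in 13.6%, 11.1% and 13.1%, each motif being read on either strand. A match is a description of letters and not of binding, and these shares carry no test.

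**Figure D3:**
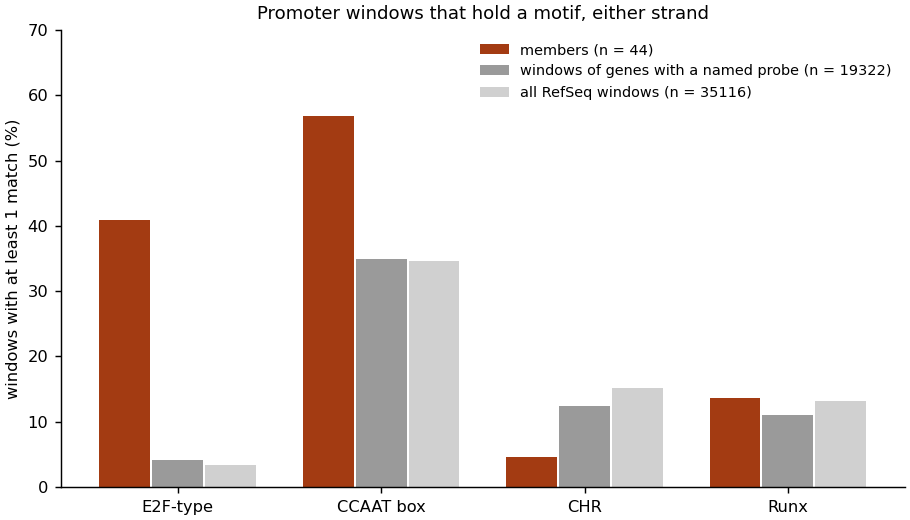
Share of promoter windows with at least 1 match to each motif on either strand, in percent, for the members (brown, n = 44), for genes that the array names (dark gray) and for all RefSeq windows (pale gray). In that order, the E2F-type bars stand at 40.9%, 4.18% and 3.31%, and the Runx bars at 13.6%, 11.1% and 13.1%.

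Every member of the loading factors, of the helicase and of the clamp with its loader fell on both days. In the last of these groups PCNA and RFC3 alone hold an E2F-type match. The matches of the loading factors and of the helicase are shown. Each is printed 5′ to 3′ on the gene's strand with 8 bases on either side, the capitals mark the match (2 overlapping matches in MCM2 and MCM6), and the place of the first capital is counted from the gene start, negative before it.
CDC6 (chr17:40287878-40287901, plus strand, first capital at 7): cattcggaTTTGGCGCgagcgcgg
CDT1 (chr16:88803746-88803769, plus strand, first capital at -35): gggcgcccGCGGGAAAtttggcgg
MCM2 (chr3:127598405-127598432, plus strand, first capital at 2): gaaccactTTTCGCGCGAAAcctggttg
MCM3, match upstream (chr6:52284901-52284924, minus strand, first capital at -174): atggtacgTTTCCCGCcaccgcgg
MCM3, match downstream (chr6:52284731-52284754, minus strand, first capital at -4): tcggaagtTTTCGCGCcggggtgg
MCM6, match upstream (chr2:135876576-135876603, minus strand, first capital at -152): gctttgcaTTTGGCGCGAAAtccctttc
MCM6, match downstream (chr2:135876514-135876541, minus strand, first capital at -90): tggtcaggTTTGGCGCGAAAtctccagc
MCM7, match upstream (chr7:100101569-100101592, minus strand, first capital at -187): ctcggaccGCGGGAAAcccggcgc
MCM7, match downstream (chr7:100101391-100101414, minus strand, first capital at -9): gggcgacgTTTCGCGCcaatttcg
In MCM2 and MCM6 a match on one strand overlaps a match on the other, and MCM6 holds the same overlapping run at both places. GMNN, with a window and a fall on both days, holds no E2F-type match.

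The whole windows of the 4 members with the largest falls on day 2 and of the 2 with the smallest changes among those above background are shown to set them side by side, with E2F-type, CHR and CCAAT matches on either strand in capitals.
TOP2A (chr17:40417847-40418146, minus strand): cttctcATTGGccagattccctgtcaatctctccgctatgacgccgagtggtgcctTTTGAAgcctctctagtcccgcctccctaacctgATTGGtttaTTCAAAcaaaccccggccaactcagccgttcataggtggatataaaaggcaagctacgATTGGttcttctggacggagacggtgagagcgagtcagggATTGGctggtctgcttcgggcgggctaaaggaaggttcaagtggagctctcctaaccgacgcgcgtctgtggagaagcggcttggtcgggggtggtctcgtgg
CDC45 (chr22:19479670-19479969, plus strand): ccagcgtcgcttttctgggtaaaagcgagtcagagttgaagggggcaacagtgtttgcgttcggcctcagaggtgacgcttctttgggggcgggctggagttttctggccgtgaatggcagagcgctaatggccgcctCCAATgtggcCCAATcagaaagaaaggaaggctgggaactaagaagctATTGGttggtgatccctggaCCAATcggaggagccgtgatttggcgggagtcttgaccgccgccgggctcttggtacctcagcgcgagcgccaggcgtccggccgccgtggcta
MCM10 (chr10:13161308-13161607, plus strand): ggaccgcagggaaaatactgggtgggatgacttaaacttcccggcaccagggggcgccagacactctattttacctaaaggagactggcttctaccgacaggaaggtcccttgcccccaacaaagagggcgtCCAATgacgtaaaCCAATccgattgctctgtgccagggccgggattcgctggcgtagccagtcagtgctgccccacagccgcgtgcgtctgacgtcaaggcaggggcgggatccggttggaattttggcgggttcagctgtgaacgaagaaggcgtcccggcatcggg
RFC3 (chr13:33817899-33818198, plus strand): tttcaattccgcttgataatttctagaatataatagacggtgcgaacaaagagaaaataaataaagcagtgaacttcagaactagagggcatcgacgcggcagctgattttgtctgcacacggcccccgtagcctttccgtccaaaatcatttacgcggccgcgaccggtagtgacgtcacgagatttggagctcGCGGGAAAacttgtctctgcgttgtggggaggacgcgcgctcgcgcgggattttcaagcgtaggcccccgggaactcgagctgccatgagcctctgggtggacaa
ORC6 (chr16:46689409-46689708, plus strand): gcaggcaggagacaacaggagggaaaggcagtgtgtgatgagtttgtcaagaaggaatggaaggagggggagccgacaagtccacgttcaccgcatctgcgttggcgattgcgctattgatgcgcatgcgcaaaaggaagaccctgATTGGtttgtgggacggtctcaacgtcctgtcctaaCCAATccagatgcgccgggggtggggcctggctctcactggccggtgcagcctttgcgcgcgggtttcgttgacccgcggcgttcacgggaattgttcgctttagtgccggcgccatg
ORC5 (chr7:104207964-104208263, minus strand): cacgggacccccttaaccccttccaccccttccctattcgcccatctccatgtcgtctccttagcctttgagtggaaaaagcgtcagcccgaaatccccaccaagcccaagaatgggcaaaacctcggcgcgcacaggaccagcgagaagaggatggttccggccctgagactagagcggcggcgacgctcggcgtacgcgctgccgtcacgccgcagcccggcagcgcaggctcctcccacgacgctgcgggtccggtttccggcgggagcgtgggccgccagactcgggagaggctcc
Of the 4 that fell most, RFC3 holds an E2F-type match, which starts at -55, and TOP2A, CDC45 and MCM10 hold none. TOP2A holds 4 CCAAT and 2 CHR matches, CDC45 4 CCAAT matches and MCM10 2. Of the other 2 windows, that of ORC6 holds 2 CCAAT matches and ORC5 none of the 3 motifs. No match says only that these exact letters are not in the window. The CDC45 window begins after the outermost listed start of that gene, so the bases before that start were not read.

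Among the 6 subunits of the origin recognition complex, which marks origins and recruits the loading factors, ORC1 had the largest fall on day 1. It also had the largest fitted fall on day 2, and ORC6 was called on neither day. 3 subunits were lower on day 1 (ORC1, ORC2 and ORC5) and 4 on day 2, with ORC3 added. ORC1, the subunit whose protein comes and goes with the cell cycle, had log2 levels of 6.32, 6.36, 6.26 and 6.06 in vehicle day 1 and 5.54, 5.49, 5.06 and 5.35 in Dox day 1. On day 2 it read 5.81, 5.96, 5.81 and 6.14 with vehicle and 4.69, 4.58, 4.56 and 4.47 with Dox. No Dox array reached a vehicle array of its day, and no Dox day 2 array was above background. ORC1 fell 1.85-fold on day 1 (log2 -0.89 ± 0.103 SE, adjusted p = 4.7e-06) and was at least 1.40-fold lower on day 2 (fitted log2 -1.36 ± 0.103 SE, adjusted p = 7.6e-09). Over the main fit and its alternatives that day 2 change of ORC1 ran from -1.87 to -0.47. The bound alone does not place ORC1 below ORC2 or ORC3 in fall or above them. ORC2 fell 1.32-fold and 1.40-fold on the 2 days, and ORC3 gave a change of -0.19 on day 1 (adjusted p = 0.2) and fell 1.44-fold on day 2.

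ORC6, a subunit that binds the rest of the complex more loosely in human cells, lay between 13.28 and 13.88 on the log2 scale on every array. The log2 levels of ORC6 on the 4 arrays of each group were 13.37, 13.66, 13.70 and 13.67 in vehicle day 1, 13.36, 13.73, 13.79 and 13.78 in Dox day 1, 13.28, 13.65, 13.81 and 13.88 in vehicle day 2 and 13.51, 13.70, 13.58 and 13.86 in Dox day 2. The 4 groups overlapped, and replicate 1 was the lowest array of each group. The change was 0.06 on day 1 (standard error 0.13, adjusted p = 0.84) and 0.01 on day 2 (standard error 0.13, adjusted p = 0.97); the day 2 sign turns when arrays are scaled to one median (-0.09). The uncorrected signal of this probe ran from 9735 to 16611, where the brightest probe of an array read 22805 to 34276.

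ORC5, an ATP-binding subunit, was the 1 member called as falling less on day 2 than on day 1. It read 9.88, 9.93, 10.03 and 10.04 in vehicle day 1, 9.42, 9.38, 9.43 and 9.45 in Dox day 1, 9.41, 9.39, 9.42 and 9.52 in vehicle day 2 and 9.18, 9.21, 9.07 and 9.34 in Dox day 2. The vehicle arrays of day 2 lay at the level of the Dox arrays of day 1. ORC5 fell 1.47-fold on day 1 (log2 -0.55 ± 0.062 SE, adjusted p = 3.6e-06) and 1.18-fold on day 2 (log2 -0.23 ± 0.062 SE, adjusted p = 0.007), a difference between the days of 0.32 (adjusted p = 0.025). That difference no longer passed without vehicle day 1 replicate 3 or 4, Dox day 1 replicate 2, vehicle day 2 replicate 2 or Dox day 2 replicate 4 (adjusted p = 0.05 to 0.056), nor with the authors' table (0.081), median scaling (0.24) or the mean of its 3 probes (0.12), and the day 2 fall did not pass with that mean (0.13). A second ORC5 probe, above background on 7 arrays, gave -0.54 on day 1 (adjusted p = 0.0044) and -0.18 on day 2 (adjusted p = 0.35).

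The 3 genes that load the helicase or restrain its loading were lower on both days, including the inhibitor. CDT1, which brings MCM2 to MCM7 to the origin, read 9.11, 9.59, 9.49 and 9.48 in vehicle day 1 and 8.65, 8.46, 8.43 and 8.45 in Dox day 1. On day 2 it read 8.95, 8.76, 8.84 and 8.86 with vehicle and 7.28, 7.16, 7.02 and 7.0 with Dox. The groups did not overlap on either day, and the lowest vehicle array of day 1 was replicate 1. CDT1 fell 1.89-fold on day 1 (log2 -0.92 ± 0.094 SE, adjusted p = 1.1e-06), the largest fall of any member that day, and 3.33-fold on day 2 (log2 -1.74 ± 0.094 SE, adjusted p = 8.9e-11).

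GMNN encodes geminin, the protein that binds CDT1 and prevents a second round of loading. GMNN read 10.03, 9.54, 9.59 and 9.72 in vehicle day 1 and 8.64, 8.77, 8.93 and 9.0 in Dox day 1, and 9.41, 9.37, 9.27 and 9.14 in vehicle day 2 and 7.45, 7.90, 7.94 and 7.83 in Dox day 2. The Dox arrays lay below all vehicle arrays of their day. GMNN fell 1.85-fold on day 1 (log2 -0.89, adjusted p = 2.9e-05) and 2.86-fold on day 2 (log2 -1.52, adjusted p = 1.4e-08), and the changes of CDT1 and of its inhibitor on day 2 were -1.74 and -1.52. CDC6, the ATPase that acts with CDT1, was above background on 3 vehicle arrays of day 1 and 1 of day 2 and on no Dox array. It read 5.47, 6.03, 5.76 and 6.13 in vehicle day 1 and 5.21, 5.08, 4.95 and 4.88 in Dox day 1 and was at least 1.35-fold lower with Dox (fitted log2 -0.82 ± 0.15 SE, adjusted p = 0.00048). On day 2 the fitted change was -0.78 (adjusted p = 0.00039) and no fold is given.

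All 6 subunits of the MCM2 to MCM7 helicase ring were lower on both days, with folds from 1.23-fold (MCM5) to 1.60-fold (MCM2) on day 1 and from 1.99-fold (MCM6) to 4.24-fold (MCM2) on day 2. The levels of MCM2 were 9.23, 9.31, 9.42 and 9.35 in vehicle day 1, 8.82, 8.71, 8.49 and 8.57 in Dox day 1, 8.88, 8.89, 8.87 and 9.13 in vehicle day 2 and 7.01, 6.89, 6.62 and 6.89 in Dox day 2. Every Dox day 2 array lay more than a log2 unit below every other array. The fall was 1.60-fold on day 1 (log2 -0.68 ± 0.091 SE, adjusted p = 2.4e-05) and 4.24-fold on day 2 (log2 -2.09 ± 0.091 SE, adjusted p = 5.2e-12).

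MCM6 changed least of the 6 on day 2. MCM6 read 10.70, 10.93, 11.01 and 10.78 in vehicle day 1 and 10.65, 10.53, 10.67 and 10.38 in Dox day 1, and 10.42, 10.39, 10.58 and 10.49 in vehicle day 2 and 9.51, 9.48, 9.51 and 9.41 in Dox day 2. The groups of a day did not overlap, although on day 1 replicate 3 of the Dox arrays came within a few hundredths of replicate 1 of the vehicle arrays. MCM6 fell 1.23-fold on day 1 (log2 -0.30 ± 0.078 SE, adjusted p = 0.01) and 1.99-fold on day 2 (log2 -0.99 ± 0.078 SE, adjusted p = 1.2e-08). MCM7 fell 2.99-fold, MCM5 2.87-fold, MCM4 2.65-fold and MCM3 2.35-fold on day 2. The day 1 fall of MCM5 (adjusted p = 0.0086) did not pass with median scaling (0.055). A second MCM4 probe gave -0.52 and -1.45 on the 2 days beside -0.51 and -1.41 for the brighter one. The 6 subunits also fell in the vehicle cultures between the days, by 1.18-fold (MCM7) to 1.40-fold (MCM5).

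**Figure D4:**
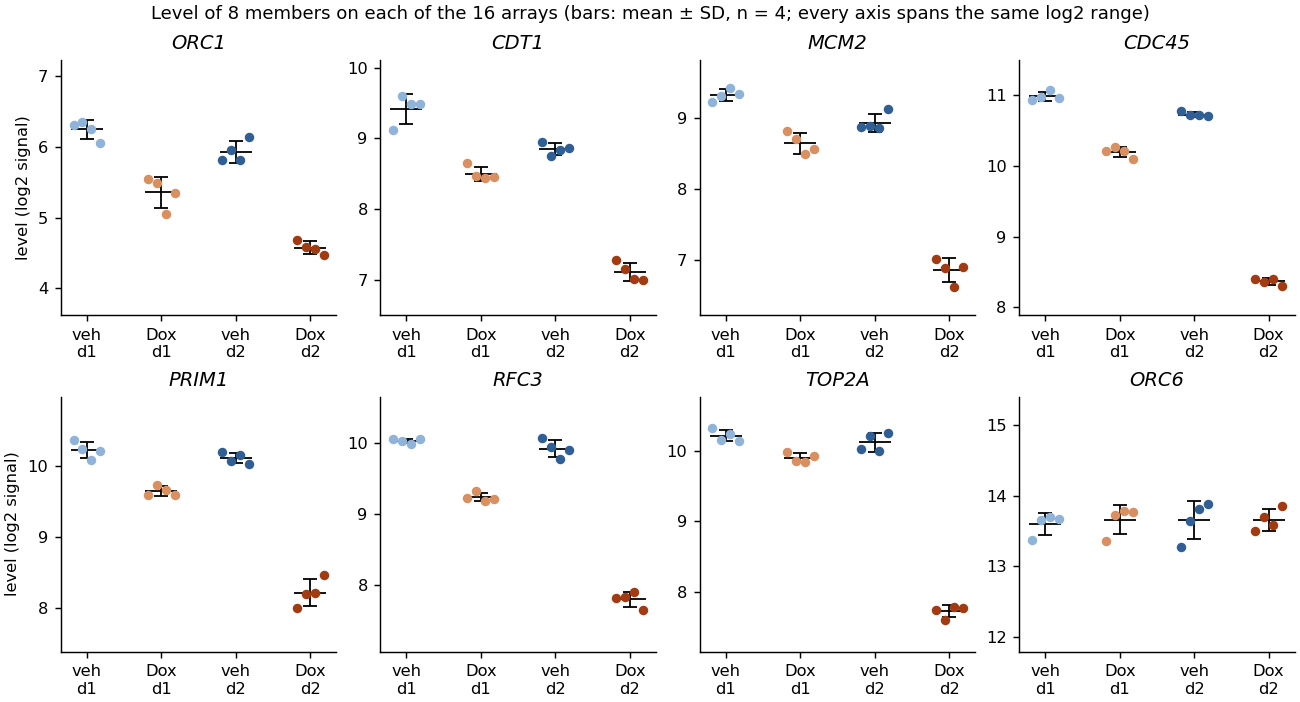
Log2 level of 8 members on each array (points, in replicate order 1 to 4), with the mean and SD of the 4 arrays of a group as bars; veh is vehicle, d1 and d2 are day 1 and day 2, and every y axis spans the same number of log2 units. Dox day 2 is the lowest group in the panels of ORC1, CDT1, MCM2, CDC45, PRIM1, RFC3 and TOP2A, and ORC6 stays between 13.28 and 13.88.

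The partners that turn the MCM ring into a working helicase included the second and the third largest falls of the 51, those of CDC45 and MCM10. CDC45, which clamps the ring together with GINS, read 10.93, 10.98, 11.08 and 10.96 in vehicle day 1 and 10.21, 10.27, 10.20 and 10.10 in Dox day 1. On day 2 it read 10.77, 10.71, 10.71 and 10.71 with vehicle and 8.41, 8.36, 8.40 and 8.31 with Dox. The groups stood far apart on both days compared with the spread inside each of them. CDC45 fell 1.73-fold on day 1 (log2 -0.79 ± 0.054 SE, adjusted p = 7.6e-09) and 5.13-fold on day 2 (log2 -2.36 ± 0.054 SE, adjusted p = 1.7e-15).

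MCM10, which helps the helicase start and carries polymerase alpha to the fork, fell 1.69-fold on day 1 (log2 -0.76, adjusted p = 4.9e-06) and 4.56-fold on day 2 (log2 -2.19, adjusted p = 1.6e-12), and a second probe gave -0.73 and -1.67. Of the 4 GINS subunits, GINS2 and GINS3 fell on both days and GINS4 on day 2. GINS3 read 8.64, 8.83, 8.81 and 8.78 in vehicle day 1, 8.02, 7.94, 8.09 and 7.87 in Dox day 1, 8.30, 8.17, 8.28 and 8.32 in vehicle day 2 and 7.19, 6.98, 7.11 and 7.03 in Dox day 2, with no overlap within a day. It fell 1.72-fold (log2 -0.78 ± 0.067 SE, adjusted p = 1.3e-07) and 2.27-fold (log2 -1.19 ± 0.067 SE, adjusted p = 1.6e-10). GINS2 fell 1.53-fold and 3.58-fold. GINS4 gave -0.14 on day 1 (SD of its Dox arrays 0.396, adjusted p = 0.68) and was 3.27-fold lower on day 2 (log2 -1.71, adjusted p = 1.3e-07).

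CDC7, the kinase that phosphorylates the MCM ring to fire origins, was little changed on day 1 and about 2-fold lower on day 2. CDC7 read 8.62, 8.70, 8.72 and 8.73 in vehicle day 1 and 8.37, 8.51, 8.54 and 8.42 in Dox day 1, and 8.53, 8.59, 8.57 and 8.33 in vehicle day 2 and 7.46, 7.54, 7.40 and 7.49 in Dox day 2. The groups of a day did not overlap. The fall was 1.17-fold on day 1 (log2 -0.23 ± 0.064 SE, adjusted p = 0.016) and 2.04-fold on day 2 (log2 -1.03 ± 0.064 SE, adjusted p = 6e-10). The day 1 call did not pass without Dox day 1 replicate 1 (adjusted p = 0.057) or with median scaling (0.14). Its activator DBF4 was not above background.

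Of the 8 polymerase and primase subunits, 5 were lower on day 1 and 6 on day 2, the other 2 (PRIM2 and POLD3) lying below background. PRIM1, the catalytic subunit that lays the RNA primer, fell most. Its log2 levels were 10.36, 10.24, 10.08 and 10.22 in vehicle day 1, 9.59, 9.74, 9.67 and 9.60 in Dox day 1, 10.20, 10.08, 10.16 and 10.03 in vehicle day 2 and 8.0, 8.19, 8.21 and 8.46 in Dox day 2. Vehicle day 1 and vehicle day 2 overlapped, while each Dox group lay apart from both. PRIM1 fell 1.49-fold (log2 -0.58 ± 0.085 SE, adjusted p = 6.5e-05) and 3.74-fold (log2 -1.90 ± 0.085 SE, adjusted p = 6.7e-12). POLA1 and POLA2, the catalytic and accessory subunits of polymerase alpha that extends the primer, fell 2.29-fold and 2.86-fold on day 2 and 1.47-fold and 1.18-fold on day 1, the POLA2 call on day 1 not passing with median scaling (adjusted p = 0.068). POLE and POLE2, of the leading strand polymerase epsilon, fell 2.40-fold and 3.54-fold on day 2. Only 1 of the 4 Dox day 2 arrays detected POLE above background, and its change of -1.26 was -0.55 without background correction and -0.83 with an offset of 50.

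POLD1, the catalytic subunit of the lagging strand polymerase delta, had the smallest fall on day 2 of the 6 polymerase genes above background. POLD1 read 7.29, 7.44, 7.50 and 7.17 in vehicle day 1 and 7.27, 7.02, 6.80 and 6.79 in Dox day 1, and 7.16, 7.32, 7.12 and 7.16 in vehicle day 2 and 6.24, 6.23, 6.0 and 5.55 in Dox day 2. The groups overlapped on day 1, where replicate 1 of the Dox arrays reached the vehicle arrays, and stood apart on day 2. The change was -0.38 on day 1 (adjusted p = 0.067), and POLD1 fell 2.27-fold on day 2 (log2 -1.18 ± 0.14 SE, adjusted p = 1.7e-06). The day 1 change passed without Dox day 1 replicate 1 or Dox day 2 replicate 4 (adjusted p = 0.017 to 0.022), and also with an offset of 50 (0.045), without background correction (0.011) or over brighter probes alone (0.033).

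The clamp PCNA and all 5 subunits of its loader RFC were lower on both days. RFC3, a small subunit of the loader, read 10.06, 10.03, 10.0 and 10.06 in vehicle day 1 and 9.23, 9.33, 9.18 and 9.22 in Dox day 1. On day 2 it read 10.08, 9.94, 9.78 and 9.90 with vehicle and 7.82, 7.83, 7.90 and 7.64 with Dox. The vehicle arrays of both days overlapped and lay above every Dox array. RFC3 fell 1.74-fold (log2 -0.80 ± 0.068 SE, adjusted p = 1.4e-07) and 4.37-fold (log2 -2.13 ± 0.068 SE, adjusted p = 9.8e-14), and its 2 other probes gave -1.83 and -1.58 on day 2. RFC4 and RFC5 fell 2.80-fold and 2.84-fold on day 2 and RFC2 1.88-fold. A second RFC2 probe, above background on 14 arrays, gave -0.27 on day 1 (adjusted p = 0.076) and -0.54 on day 2 (adjusted p = 0.00031). PCNA, the ring that tethers polymerases to DNA, fell 1.36-fold (log2 -0.44, adjusted p = 0.00094) and 2.44-fold (log2 -1.29, adjusted p = 1.3e-09).

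RFC1, the large subunit, had the smallest fall of the 6 on day 2. RFC1 read 8.37, 8.78, 8.78 and 8.60 in vehicle day 1 and 8.15, 8.39, 8.39 and 8.12 in Dox day 1, and 8.59, 8.64, 8.67 and 8.35 in vehicle day 2 and 7.75, 7.75, 7.61 and 7.73 in Dox day 2. On day 1 the groups overlapped, vehicle replicate 1 lying at 8.37 and the other vehicle arrays at 8.60 or more, and on day 2 they did not. RFC1 fell 1.29-fold (log2 -0.37 ± 0.097 SE, adjusted p = 0.011) and 1.81-fold (log2 -0.86 ± 0.097 SE, adjusted p = 1.5e-06); the day 1 call did not pass with median scaling (adjusted p = 0.064). The difference between the days was -0.49 (adjusted p = 0.028) and did not pass without vehicle day 1 replicate 1 or 4, Dox day 1 replicate 2 or 3, vehicle day 2 replicate 1, 2 or 3 or Dox day 2 replicate 3 (adjusted p = 0.051 to 0.065), nor with the authors' table (0.071) or without moderation (0.055).

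The 3 subunits of RPA, which coats single-stranded DNA in replication and in repair, had small changes: none was called on day 1 and all 3 were lower on day 2, by 1.19-fold to 1.48-fold. RPA1, the large DNA-binding subunit, read 10.88, 10.79, 10.80 and 10.80 in vehicle day 1 and 10.72, 10.73, 10.65 and 10.70 in Dox day 1, and 10.89, 10.75, 10.84 and 10.95 in vehicle day 2 and 10.26, 10.40, 10.32 and 10.20 in Dox day 2. The Dox arrays lay just below the vehicle arrays on day 1 and clearly below on day 2. RPA1 gave -0.12 on day 1 (adjusted p = 0.2) and was 1.48-fold lower on day 2 (log2 -0.56 ± 0.058 SE, adjusted p = 4.7e-07).

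RPA2, the subunit that is phosphorylated at stressed forks, fell with Dox on day 2 and also between the days in vehicle. RPA2 read 10.89, 10.95, 11.03 and 11.02 in vehicle day 1 and 10.93, 10.90, 10.86 and 10.59 in Dox day 1, and 10.59, 10.55, 10.46 and 10.50 in vehicle day 2 and 10.24, 10.22, 10.32 and 10.29 in Dox day 2. Vehicle and Dox overlapped on day 1, and both groups of day 2 lay below both groups of day 1 but for replicate 4 of Dox day 1, which lay level with the highest vehicle array of day 2. RPA2 fell 1.19-fold with Dox on day 2 (log2 -0.25 ± 0.07 SE, adjusted p = 0.0094) and 1.37-fold between the days in vehicle (log2 -0.45, adjusted p = 0.00043). RPA3 fell 1.40-fold on day 2 (log2 -0.49, adjusted p = 0.00011). Its difference between the days (-0.36, adjusted p = 0.054) passed without vehicle day 1 replicate 1, Dox day 1 replicate 1, vehicle day 2 replicate 4 or Dox day 2 replicate 3 (adjusted p = 0.03 to 0.049) and also with an offset of 50 (0.037), without background correction (0.011), over brighter probes alone (0.027) or with probes averaged within genes (0.046).

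Of the 5 enzymes that finish the new strands and untangle the daughter DNA, 4 were lower on day 1 and all 5 on day 2. TOP2A, the topoisomerase that separates intertwined chromosomes and whose RNA peaks late in the cycle, had the largest fall of the 51. It read 10.32, 10.16, 10.23 and 10.14 in vehicle day 1, 9.98, 9.86, 9.83 and 9.92 in Dox day 1, 10.02, 10.21, 9.99 and 10.24 in vehicle day 2 and 7.75, 7.60, 7.79 and 7.77 in Dox day 2. The first 3 groups lay within 1 log2 unit of each other and Dox day 2 lay far below them. TOP2A fell 1.24-fold on day 1 (log2 -0.31 ± 0.071 SE, adjusted p = 0.0034) and 5.23-fold on day 2 (log2 -2.39 ± 0.071 SE, adjusted p = 4e-14).

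RNASEH2A, the catalytic subunit of the enzyme that removes ribonucleotides from DNA, gave -0.19 on day 1 (adjusted p = 0.078) and was 3.21-fold lower on day 2 (log2 -1.68, adjusted p = 4.5e-12); its day 1 change passed without Dox day 2 replicate 2 (adjusted p = 0.039) and also with an offset of 50 (0.041), without background correction (0.018) or over brighter probes alone (0.04). FEN1, the flap endonuclease of Okazaki fragments, fell 1.39-fold and 2.73-fold. LIG1, the ligase that joins those fragments, fell 1.15-fold on day 1 (log2 -0.20, adjusted p = 0.045) and 2.58-fold on day 2 (log2 -1.37, adjusted p = 2e-11). On the Dox day 2 arrays its detection p was 0.0045 to 0.0090, just under the cut of 0.01. Over the main fit and its alternatives the day 2 change of LIG1 ran from -1.45 to -0.63. The day 1 call of LIG1 did not pass without vehicle day 1 replicate 2, 3 or 4, Dox day 1 replicate 1, 2 or 4, vehicle day 2 replicate 2 or 4 or Dox day 2 replicate 3 or 4 (adjusted p = 0.052 to 0.14), nor without background correction (0.054), with the authors' table (0.097) or with median scaling (0.33). DNA2, a nuclease that trims long flaps, had the smallest fitted change of the 5 on day 2. Its probe lay near background, so how its fall ranks among the 5 is not known. It read 5.97, 5.74, 5.83 and 5.72 in vehicle day 1, 5.78, 5.34, 5.17 and 5.31 in Dox day 1, 5.39, 5.42, 5.44 and 5.61 in vehicle day 2 and 5.0, 5.10, 4.92 and 5.18 in Dox day 2. The groups overlapped on day 1 through Dox replicate 1 and did not on day 2, when no Dox array was above background. DNA2 fell 1.33-fold on day 1 (log2 -0.41 ± 0.11 SE, adjusted p = 0.0089) and was at least 1.02-fold lower on day 2 (fitted log2 -0.42 ± 0.11 SE, adjusted p = 0.0052).

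Of the 6 fork protection and chromatin assembly genes, 4 were lower on day 1 and 5 on day 2. CHAF1B, a subunit of the CAF-1 complex that places histones behind the fork, read 8.59, 8.65, 8.64 and 8.55 in vehicle day 1 and 7.99, 7.93, 7.93 and 7.77 in Dox day 1. On day 2 it read 8.51, 8.28, 8.30 and 8.25 with vehicle and 6.74, 6.67, 6.84 and 6.71 with Dox. The groups of a day did not overlap. CHAF1B fell 1.62-fold (log2 -0.70 ± 0.067 SE, adjusted p = 5.4e-07) and 3.03-fold (log2 -1.60 ± 0.067 SE, adjusted p = 3e-12). Its partner CHAF1A, the large subunit that binds PCNA, fell 1.59-fold on day 1 (log2 -0.66, adjusted p = 0.00041) and was at least 2.28-fold lower on day 2 (fitted log2 -1.47, adjusted p = 1.6e-08).

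TIPIN and TIMELESS encode the 2 partners of a complex that travels with the fork. TIMELESS was called on day 2 and TIPIN on both days. TIPIN read 8.78, 8.43, 8.53 and 8.48 in vehicle day 1 and 7.86, 8.07, 8.01 and 8.10 in Dox day 1, and 8.14, 7.98, 8.07 and 7.91 in vehicle day 2 and 7.06, 7.27, 7.49 and 7.19 in Dox day 2. The groups of a day did not overlap, and vehicle day 2 lay at the level of Dox day 1. TIPIN fell 1.46-fold (log2 -0.55 ± 0.094 SE, adjusted p = 0.0003) and 1.70-fold (log2 -0.77 ± 0.094 SE, adjusted p = 3.4e-06), with a difference between the days of -0.22 (adjusted p = 0.4). TIMELESS gave -0.13 on day 1 (adjusted p = 0.32) and fell 2.49-fold on day 2, with a difference between the days of -1.19 (adjusted p = 4.7e-07). Whether the 2 genes differ from each other was not tested. WDHD1, which links polymerase alpha to the helicase, fell 1.62-fold and 2.74-fold. On day 2, 2 of 4 Dox arrays detected WDHD1, and its change of -1.45 was -0.64 without background correction and -0.97 with an offset of 50.

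The interaction of day and treatment tests whether the Dox change of a gene differed between the days. It was called in the lower direction (a larger fall on day 2) for 35 members and in the higher direction for 1, ORC5. Over all probes 5.6% were called lower and 5.34% higher, and over the genes above background 13.4% and 11.8%. The largest difference was that of TOP2A (-2.07, standard error 0.1, adjusted p = 2.8e-10), followed by GINS4 (-1.57), CDC45 (-1.57) and RNASEH2A (-1.49). The change on day 2 was below that on day 1, called or not, in 46 of 51 cases. In all, 8 genes were called on day 2 and not on day 1: ORC3, GINS4, POLD1, RPA1, RPA2, RPA3, RNASEH2A and TIMELESS, and for GINS4, POLD1, RPA1, RNASEH2A and TIMELESS the interaction was called too.

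Some members showed no called difference between the days. CDC6 gave -0.82 and -0.78, DNA2 -0.41 and -0.42, ORC2 -0.41 and -0.49, RFC2 -0.50 and -0.91 and TIPIN -0.55 and -0.77 on day 1 and day 2. For CDC6 and DNA2 no Dox day 2 array was above background, and for CDC6 no Dox day 1 array either. Their fitted changes may understate a fall, so for these genes the days cannot be compared. The difference of RFC2 passed with probes averaged within genes (0.038). A p that misses the threshold does not show that both days were alike, and the standard errors of these differences ran from 0.11 (ORC2) to 0.21 (CDC6). The difference of ORC1 (-0.47, adjusted p = 0.049) did not pass without vehicle day 1 replicate 1, 3 or 4, Dox day 1 replicate 1, 2 or 4, vehicle day 2 replicate 2 or 4 or Dox day 2 replicate 2, 3 or 4 (adjusted p = 0.056 to 0.1), nor with an offset of 50 (0.29), without background correction (0.26), with median scaling (0.073) or without moderation (0.088), and those of PCNA and WDHD1 not with the mean of their 3 probes each (0.055 and 0.4). The difference of GMNN (-0.63, adjusted p = 0.021) did not pass with the authors' table (0.055) or without moderation (0.053).

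**Figure D5:**
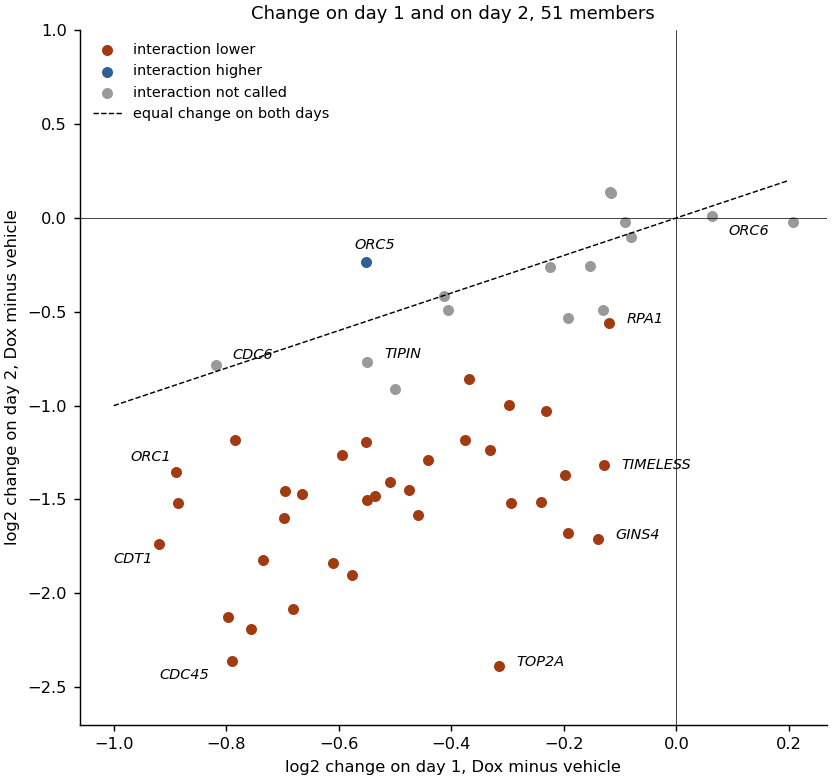
Log2 change with Dox on day 1 (x axis) and day 2 (y axis) of the 51 members, colored by the call of the interaction; the dashed line marks an equal change on both days. 35 members are called below the line, TOP2A (-0.31 and -2.39) lies farthest from it and ORC5 is the one called above it.

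The members also moved with time alone, in contrasts that share arrays with those above. In the vehicle cultures 21 members were lower on day 2 than on day 1 and 0 higher, against 5.27% and 5.29% of all probes, with a median change of -0.20. The 6 MCM subunits, CDC6, CDT1, GMNN, CDC45, MCM10, GINS2, GINS3 and FEN1 were among them, and none of PCNA and the 5 RFC subunits was. The largest of these falls were those of CDC6 (-0.61, adjusted p = 0.011), CDT1 (-0.57, adjusted p = 0.00068), ORC5 (-0.54, adjusted p = 2.5e-05) and TIPIN (-0.53, adjusted p = 0.0011). In the Dox cultures 43 were lower on day 2 than on day 1 and 0 higher, against 9.41% and 10.1% of all probes, with a median change of -0.96. The duration of treatment and the age of the culture cannot be told apart in either contrast.

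Of the 10 members with more than 1 probe, the 15 dimmer probes gave the same direction on day 2 wherever they lay above background on all 16 arrays, which were 1 probe each of MCM4, PCNA, RFC3 and RFC4. The change on day 2 of the PCNA probe among them was smaller (-0.70, adjusted p = 0.00066) than the brighter one (-1.29), and its difference between the days was not called (-0.10, adjusted p = 0.87). Another PCNA probe, above background on 6 arrays, gave -0.05 and -0.19 and was not called. A second MCM7 probe, above background on 10 arrays, gave -1.18 on day 1 and -1.43 on day 2, beside -0.46 and -1.58 for the brighter probe. The probes of one gene may read different transcripts, and which transcripts they match was not tested.

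Other genes of replication were read from 3 lists. Beside their counts, 9.94% of all probes were called lower and 8.92% higher on day 1, and 14.5% and 14.4% on day 2. Among genes above background these shares were 21.9% and 20.4% on day 1 and 31.1% and 30% on day 2. Of 31 measured genes among 34 further fork and licensing factors, 16 were lower and 2 higher on day 1, and 20 and 2 on day 2 (median change -0.54). EXO1, an exonuclease of replication and repair, fell 5.86-fold on day 2 (log2 -2.55, adjusted p = 2.4e-15), ASF1B, a histone chaperone, 4.06-fold (log2 -2.02, adjusted p = 2.8e-12), and TICRR, which brings CDC45 to the ring, was at least 2.41-fold lower (fitted log2 -2.02, adjusted p = 1.1e-10). The 2 that rose on day 2 were small subunits of the polymerases whose catalytic subunits were lower. POLD4, of polymerase delta, rose 1.75-fold on day 1 (log2 0.81, adjusted p = 9.3e-07) and 2.26-fold on day 2 (log2 1.17, adjusted p = 2.4e-09), where POLD1 fell 2.27-fold. POLE4, a histone-fold subunit of polymerase epsilon, rose 1.29-fold and 1.63-fold (log2 0.71, adjusted p = 1.7e-08), where POLE and POLE2 fell and POLE3, its histone-fold partner, fell 1.39-fold (log2 -0.48, adjusted p = 2.2e-05).

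Of 20 genes that control licensing and S phase entry, 10 were lower and 1 higher on day 1, and 10 and 1 on day 2. DTL, the receptor through which the CUL4 ligase marks CDT1 for destruction in S phase, was at least 3.95-fold lower on day 2 (fitted log2 -2.28, adjusted p = 6.2e-13), while DDB1, the adaptor of that ligase, rose 1.43-fold (log2 0.52, adjusted p = 1.7e-05) and CUL4A and CUL4B were not called. CCNA2, the S phase cyclin, fell 4.64-fold (log2 -2.21, adjusted p = 2.7e-13) and E2F2, an activating E2F, 4.43-fold (log2 -2.15, adjusted p = 1.4e-12). Of 13 measured polymerases that do not copy DNA at the fork, 5 were lower and 0 higher on day 2, and 2 and 1 on day 1. Among genes above background 31.1% were lower and 30% higher on day 2, and 21.9% and 20.4% on day 1. POLQ, of end joining, fell 4.68-fold (log2 -2.23, adjusted p = 5.3e-13), and the next largest falls were 1.31-fold (POLG2) and 1.27-fold (POLG), subunits of the mitochondrial polymerase. The median change of that list on day 2 was -0.07, where the median of the 51 members was -1.29. Only 7 of its 13 genes lay above background on all 4 arrays of at least 1 group, against 44 of the 51 members. The middle value belongs to POLH, 1 of 4 genes of the list that no array detected above background. Whether the lists differ was not tested.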

How the data were processed

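C4-2B/Rx2dox cultures were profiled on 16 single-colour Illumina Human Ref-8 version 3 BeadChip arrays, 4 per group. The deposited table holds scanner intensity values per probe, exported from BeadStudio without background correction, with a detection p-value that the authors' software computed against 664 negative controls. The authors also deposited a log2 table (model-based background correction, then quantile normalization), used here as an alternative. From the intensities, normexp background correction (offset 16), quantile normalization and log2 were computed, and 4 group means were fitted over all 16 arrays with limma 3.58.1 in R 4.3.3 (statmod 1.5.0), with Benjamini-Hochberg adjustment over all 24526 probes, two-sided. Depth does not apply to arrays, and their number limits the precision. The fit was tested on simulated data. A gene is its brightest probe over all arrays.

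Members and lists were chosen with earlier results of these data known. Values on every array were given for the largest and smallest day 2 change in each role among members above background on 4 arrays of a group, and in other lists up to 3 falls and 3 rises among called genes were named. Members and genes named beyond this rule were chosen after their values were seen. Alternatives covered offset, background correction, scaling, dim probes, moderation, replicate block, probe averaging and each array left out. POLD2, CHTF8, ATAD5 and PRIMPOL were not analysed here. The arrays' probe annotation gave gene names, and RefSeq tables (GRCh38.p14) gave promoter windows.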

Additional observations from a re-analysis of the deposited data

Results flagged for a closer look

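In 12 of 204 groups of 4 arrays (51 members in 4 groups), or 5.88%, 1 array lay apart from the other 3 by a gap past Dixon's critical value for 4 values, where chance alone sets apart about 1 in 20 groups. On the log2 scale these were ORC4 in vehicle day 2 replicate 2 (4.61, the other 3 arrays 4.48 to 4.50), ORC6 in vehicle day 1 replicate 1 (13.37, the other 3 arrays 13.66 to 13.70), ORC6 in Dox day 1 replicate 1 (13.36, the other 3 arrays 13.73 to 13.79) and CDT1 in Dox day 1 replicate 1 (8.65, the other 3 arrays 8.43 to 8.46). They also were MCM2 in vehicle day 2 replicate 4 (9.13, the other 3 arrays 8.87 to 8.89), MCM3 in Dox day 1 replicate 1 (11.64, the other 3 arrays 11.53 to 11.53), MCM3 in Dox day 2 replicate 3 (10.19, the other 3 arrays 10.38 to 10.39) and CDC45 in vehicle day 2 replicate 1 (10.77, the other 3 arrays 10.71 to 10.71). The remaining ones were PCNA in Dox day 2 replicate 1 (9.61, the other 3 arrays 9.98 to 10.01), RFC1 in Dox day 2 replicate 3 (7.61, the other 3 arrays 7.73 to 7.75), RFC4 in Dox day 2 replicate 1 (8.80, the other 3 arrays 9.11 to 9.17) and RNASEH2A in vehicle day 2 replicate 2 (10.02, the other 3 arrays 10.17 to 10.19). In ORC6 replicate 1 was the lowest array in the other 2 groups as well.

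The Dox change differed between the days, by the interaction test, for 36 members. The difference (day 2 minus day 1, log2) was 0.32 for ORC5. It was negative, a larger fall on day 2, for the other 35. From 1 log2 unit upward in size these were TOP2A (-2.07), GINS4 (-1.57), CDC45 (-1.57), RNASEH2A (-1.49), MCM10 (-1.43), MCM2 (-1.40), RFC3 (-1.33), PRIM1 (-1.32), POLA2 (-1.27), GINS2 (-1.23), MCM5 (-1.23), TIMELESS (-1.19), LIG1 (-1.17), MCM7 (-1.12) and POLE2 (-1.09). Below 1 log2 unit they were FEN1 (-0.98), RFC5 (-0.95), RFC4 (-0.95), MCM3 (-0.91), MCM4 (-0.90), CHAF1B (-0.90), PCNA (-0.84), CDT1 (-0.82), POLD1 (-0.81), CHAF1A (-0.80), CDC7 (-0.80), WDHD1 (-0.76), MCM6 (-0.70), POLE (-0.67), POLA1 (-0.64), GMNN (-0.63), RFC1 (-0.49), ORC1 (-0.47), RPA1 (-0.44) and GINS3 (-0.40).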

How the results depend on the processing

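The counts of members called lower on day 1 and day 2 lay between 31 (median scaling) and 38 on day 1 and 43 and 44 on day 2 over the alternatives other than the restriction to brighter members, with none higher, and between 35 and 37 and at 44 when 1 array was left out. Of the 39 members above background on all 16 arrays, 30 were lower on day 1 and 38 on day 2. In vehicle between the days 15 (authors' table) to 28 (median scaling) were lower. Leaving out 1 array gave 33 to 35 lower and 0 to 1 higher in the interaction, 19 to 22 lower in vehicle, and 41 to 43 lower and 0 to 1 higher in Dox between the days. The member called higher in the interaction, ORC5, was lost (0) with the authors' table, median scaling and averaged probes. 1 member, POLD3, which no array detected above background, was higher in Dox between the days with median scaling, with the replicate block and without Dox day 2 replicate 1. The median change of the members moved with the background correction. Without it, it was -0.32 on day 1, -0.80 on day 2, -0.44 in the interaction, -0.11 in vehicle and -0.61 in Dox between the days. With an offset of 50 it was -0.97 on day 2, -0.56 in the interaction and -0.87 in Dox between the days. Averaging the probes of a gene gave -1.19 on day 2 and -0.64 in the interaction. Members above background on all 16 arrays gave -1.41, -0.90 and, in Dox between the days, -1.17. Those detected on every array of at least 1 group, a choice made after seeing the data, gave -1.39 on day 2 and -1.06 in Dox between the days. That last median was -1.17 with median scaling and -1.05 over probes above background on at least 4 arrays. Leaving out 1 array gave interaction medians of -0.82 to -0.71. The cause of these shifts was not tested.

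Of 153 member results, 17 changed call under some alternative and 29 call or sign. The sign turned for ORC6 on day 2 with median scaling (-0.093), for DNA2 between the days with an offset of 50 (0.020) and without background correction (0.014), and for CDC6 between the days without background correction (-0.012) and with the authors' table (-0.64). Leaving out 1 array turned it for CDC6 between the days (-0.067 to 0.18), CLSPN between the days (-0.085 to 0.10), DBF4 between the days (-0.14 to 0.068), DNA2 between the days (-0.078 to 0.12), GINS1 on day 2 (-0.16 to 0.090), ORC4 on day 1 (-0.20 to 0.018), ORC6 on day 1 (-0.015 to 0.16), ORC6 on day 2 (-0.11 to 0.084), ORC6 between the days (-0.18 to 0.024), PRIM2 on day 1 (-0.15 to 0.0086), PRIM2 on day 2 (-0.053 to 0.018) and PRIM2 between the days (-0.032 to 0.13). The arrays were not treated as paired by replicate number, since over 24 pairs of same-numbered arrays the deviations correlated at -0.32 to 0.42 and not all were over 0.1. Of the 6 that were, 5 were among the 6 pairs of replicate 1. In all, 4 of 16 arrays correlated best with their own number. With the number as a replicate block, 36 members were lower on day 1 (LIG1 lost, adjusted p = 0.055, and POLD1 gained, adjusted p = 0.025), 44 on day 2, 35 lower and 1 higher in the interaction, 21 lower in vehicle and 43 lower in Dox between the days. Dim probes, 6 members above background on no array, limit what can be said of ORC4, GINS1, DBF4, PRIM2, POLD3 and CLSPN.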
